A study of Mus musculus with 5 samples.

Results

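Untreated mouse salivary gland organoids (mSGOs) were compared after 11 and after 7 days of culture, over 11096 cell barcodes of the 21417 deposited in these libraries and the 72788 deposited in the 5 libraries of the series. The members were the barcodes with at least 1000 unique molecular identifiers (UMIs), at most 5% of UMIs from mitochondrially encoded genes and at least 1% from Malat1, a nuclear RNA. This rule kept 1010 of 7151 barcodes of the 7-day library and 10086 of 14266 of the 11-day library. Both libraries came from submandibular salivary glands of C57BL/6 mice, which were 8 to 12 weeks old for the 7-day library by its label. The study's methods state that the animals were female and used this age throughout. Organoids from 4 animals were pooled in each library, were not irradiated and grew in Matrigel in WRY medium, which holds EGF, FGF2, N2, insulin, dexamethasone, Y27632, and media conditioned with R-spondin1 and Wnt3a. Libraries of 7-day mSGOs that received 7 Gy of photons or protons on day 5, from the same run as the 7-day control, are given beside the comparison where they show how the 7-day libraries lie.

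Submandibular ducts have an inner luminal layer, marked by the keratins Krt7, Krt8 and Krt18, over a basal layer that expresses Krt5, Krt14 and the transcription factor Trp63. Acinar cells secrete saliva, and striated and granular ducts, which are rich in ion pumps, modify it. Basal cells of ducts in culture can also express keratins and cornified envelope proteins that are otherwise typical of stratified epithelia such as epidermis and oral mucosa, and the keratins Krt6a, Krt6b and Krt16 are known from wounded and proliferating epithelium.

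There was 1 library per day, so no test was run, and intervals (95%, exact) cover the counting of UMIs only. The 11-day mSGOs came from other animals and another run, and the file headers name another software version (7.0.0 against 3.0.1). Culture time, animals, run and software therefore cannot be told apart. Median depth per kept barcode was 5981 UMIs and 1681 genes at day 7 and 3094 UMIs and 1617 genes at day 11. The minimum on Malat1 acted unequally: of the barcodes that passed the other 2 criteria it kept 37.3% at day 7 (1010 of 2708) and 10086 of 10189 at day 11. Just under that minimum, from 0.8% to 1%, lay 21 barcodes at day 7 and 35 at day 11, and just over it, up to 1.2%, lay 21 and 71. In the kept barcodes the median Malat1 share was 4.77% at day 7 and 3.22% at day 11. The 10th to 90th percentiles were 1.86% to 14.3% and 2.03% to 4.82%. Only 1 barcode sequence was kept in both libraries. The epithelial label held in both libraries, as Epcam stood at 839 and 1277 counts per 1000000 (CPM). Summed over their lists, markers of T, NK and B cells, endothelium, fibroblasts and pericytes, and nerve stood between 0.145 and 1.02 CPM at day 7 and between 0.227 and 3.49 CPM at day 11, and all 4 red blood cell markers had 0 UMIs in both. The 9 macrophage markers summed to 17.5 CPM at day 7, nearly all of it Cd68 (17.3 CPM), and 4.03 CPM at day 11. Xist, which is expressed from the inactive X chromosome of females, stood at 513 and 619.7 CPM.

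UMIs were summed over the kept barcodes and scaled to CPM over the 30406 genes in both gene lists, and 7708 genes had a mean of at least 10 CPM over both libraries. Of these, 3017 (39.1%) were at least 2-fold higher at day 11 and 426 (5.53%) at least 2-fold lower, on the scale of log2(CPM + 1), together 44.7%. Past 4-fold were 1128 (14.6%) higher and 113 (1.47%) lower. The median gene was higher by 0.71 on the log2 scale. Relative to that median, 1505 genes (19.5%) were at least 2-fold higher and 1122 (14.6%) at least 2-fold lower, so the share of higher genes among all called was 87.6% unshifted and 57.3% relative to the median. In the text below a gene is called higher or lower when it passed 2-fold on the unshifted scale, and counts within a list are to be read against these shares. A gene under 10 CPM in one library passed the minimum only through the other, which fixed its direction. Where this touches a list, an unforced count follows, of genes called higher among those with at least 10 CPM at day 7, or lower among those with at least 10 CPM at day 11. Over all genes these unforced shares were 28.1% of 6206 higher and 4.02% of 7531 lower.

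The ratio grew with the length of a gene's introns, as the plot by intron length shows. The median log2 ratio was 0.16 in the 536 genes with under 1 kb of introns and 0.30 in the 1832 genes with 1 to 10 kb. It was 0.64 in the 3131 genes with 10 to 50 kb and 1.59 in the 2195 genes with over 50 kb. In that last class 70.9% of the genes were called higher and 1.09% lower, against 17.0% and 13.8% in the first. In 7-day photon against 7-day control mSGOs, both counted under 1 software version, the class medians lay between 0.05 and 0.10. Genes with over 50 kb of introns took 7.95% of the UMIs at day 7 and 20.0% at day 11. Software of the newer version can count reads inside introns, and their part in these ratios was not tested. Counts among the 2368 genes with under 10 kb of introns are therefore given beside the others. Among them 404 (17.1%) were called higher and 254 (10.7%) lower. With CPM scaled over such genes alone the split was 963 higher and 180 lower of 2846.

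**Figure D1:**
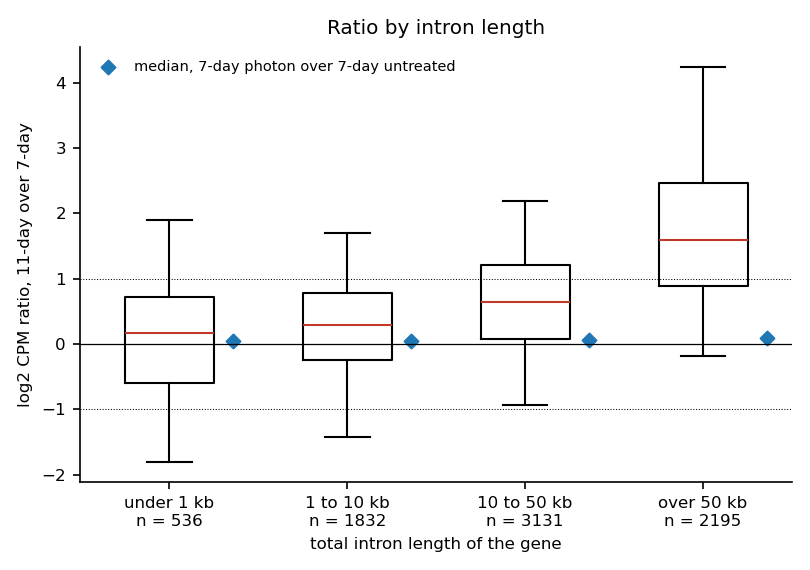
Log2 ratio of CPM, 11-day over 7-day mSGOs, for 7694 genes in 4 classes of total intron length. Boxes span the quartiles with the median in red, whiskers reach the 5th and 95th percentiles, dotted lines mark 2-fold, and diamonds give the median of 7-day photon over 7-day control mSGOs, which stays between 0.05 and 0.10.

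Messages for the cytosolic ribosomal proteins filled 32.6% of all UMIs at day 7 and 17.6% at day 11, with 29.8% and 28.8% in the photon and proton 7-day libraries. Of the 80 such genes used, 39 were called lower and 3 higher, with a median log2 ratio of -0.98. This list was taken from the gene symbols after the values were seen. With every kept barcode reduced to 1000 UMIs, the 10th, 50th and 90th percentile of the ribosomal share were 20.3%, 31.7% and 41.5% at day 7 and 12.7%, 17.3% and 22.8% at day 11, so the 90th percentile at day 11 lay below the median at day 7. The genes called higher, Rpl27, Rps12 and Rpl13a, stood at 7.85, 150.4 and 299 CPM in the 7-day control. They have processed pseudogenes that can take their reads and are uncertain. When all ribosomal protein genes were left out and CPM recomputed, the median gene was higher by 0.46 on the log2 scale. Of the 8314 genes then tested, 2564 (30.8%) were called higher and 657 (7.90%) lower, instead of 3017 and 426 of 7708.

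**Figure D2:**
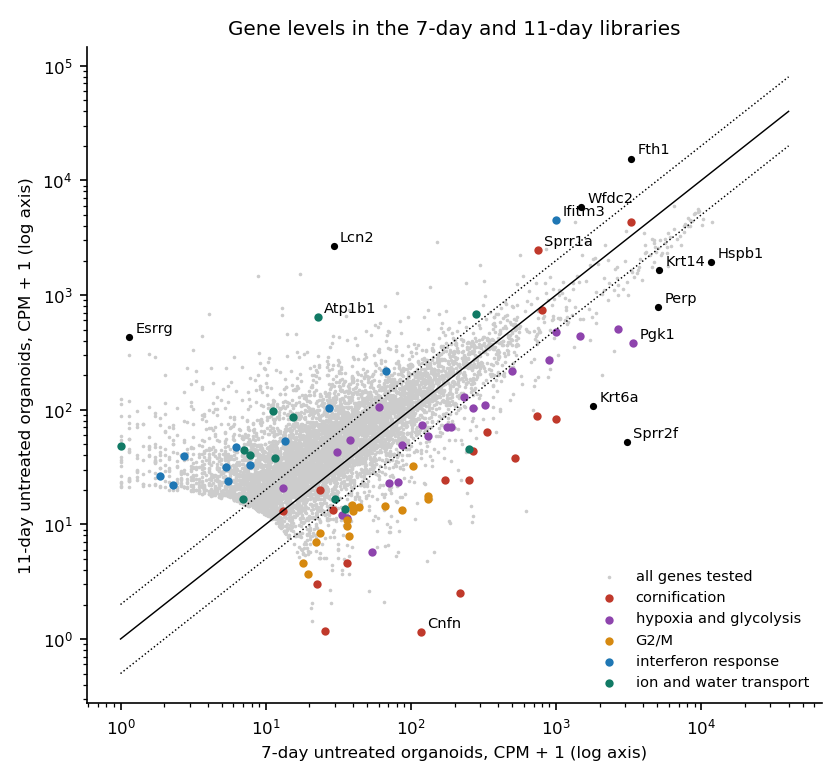
CPM + 1 at day 7 (x axis, log) and day 11 (y axis, log) for the 7708 genes tested, with 5 gene lists in colour and further named genes in black. The solid line marks equal levels and the dotted lines 2-fold, and Cnfn, at 116 and 0.142 CPM, lies lowest against it.

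The keratins of wounded epithelium were among the genes that were lower by the largest factors. Krt6a (chromosome 15, 101689928 to 101694305, GRCm38.p6) stood at 1796 CPM in the 7-day control, 1746 and 1534 CPM in the photon and proton 7-day libraries and 107 CPM at day 11, which was 16.7-fold lower than the 7-day control (95% interval 16.1 to 17.4). Krt6b went from 262 to 9.4 CPM and Krt16 from 185 to 9.31 CPM. The log2 ratio of Krt6a, -4.05, lay between -4.76 and -2.68 over the alternatives. That of Krt6b, -4.66, was -1.60 when only barcodes with at least 2500 detected genes were used. The 11-day value of these 3 keratins was thus below that of every 7-day library, and the irradiated libraries lay far closer to the 7-day control than to day 11. Krt6a and Krt6b are close copies, so reads can be split between them. Krt17, the last member of this list, was nearly level at 2269 and 2035 CPM. Krt6b and Krt16 were under 10 CPM at day 11, so the unforced count was 1 of 2 lower. The list had a median log2 ratio of -4.11, or -4.83 relative to the median of all genes.

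Basal duct genes did not move as a block. Krt14 stood at 5127 CPM in the 7-day control, 4885 and 5034 CPM in the irradiated libraries and 1645 CPM at day 11, 3.12-fold lower than the control (3.08 to 3.16). Its partner Krt5 went from 2085 to 1017 CPM and Sfn, the p53-responsive stratifin of stratified epithelium, from 1326 to 350.1 CPM. The call of Krt5 was lost under some alternatives, its log2 ratio lying between -1.75 and -0.68. Krt15, by contrast, stood at 534 CPM in the 7-day control, 1052 and 984 CPM in the irradiated libraries and 810.0 CPM at day 11, inside the 7-day range. Trp63, the master factor of basal cells, stood at 110.1 and 173 CPM but has 199.9 kb of introns. Of the 12 members 4 were called lower and 2 higher, with a median log2 ratio of 0.06 that changed sign between the alternatives.

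In the cornification list, 13 of 18 members used were called lower and 1 higher, where 5.53% and 39.1% of all genes were. The unforced count was 8 of 13 lower, since 5 members were under 10 CPM at day 11, Cnfn and Sprr2h among them. Among the 16 members with under 10 kb of introns, 11 were called lower and 1 higher. The list median was -2.86 on the log2 scale, the members ranging from -6.68 to 1.73, and lay between -3.57 and -1.25 over the alternatives. Cnfn, which encodes cornifelin, a part of the cornified envelope, stood at 116, 143 and 143 CPM in the control, photon and proton 7-day libraries and at 0.142 CPM (5 UMIs) at day 11. It was 818-fold lower than the 7-day control, with an interval of 349 to 2527.

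Small proline-rich proteins are cross-linked into the envelope. Sprr2f, named by its ratio and not a member of the list, stood at 3076 CPM in the 7-day control, 3167 and 2635 CPM in the irradiated libraries and 51.5 CPM at day 11. Its log2 ratio, -5.87, lay between -7.08 and -3.43 over the alternatives. In the list, Sprr2h went from 218 to 1.51 CPM and Sprr2d from 266 to 42.8 CPM. The Sprr2 genes are close copies of each other, so the split between them is uncertain. Sprr1a went the other way. It stood at 748 CPM in the 7-day control, 1157 and 965 CPM in the irradiated libraries and 2477 CPM at day 11, 3.31-fold higher than the control. Its neighbour Sprr1b was lower, at 336 and 62.5 CPM. The secreted epidermal proteins Dmkn (1002 to 81.2 CPM) and Krtdap (521 to 36.8 CPM) and the keratins of suprabasal layers Krt13 (742 to 87.9 CPM) and Krt10 (249.6 to 23.3 CPM) were all called lower. Ly6d, a surface protein of stratified epithelia, was the most abundant member at 3269 and 4327 CPM and was not called. The list, which leaves out Sprr2f, summed to 8595 CPM at day 7 and 7963 CPM at day 11, and with Sprr2f to 11671 and 8014 CPM.

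Some envelope genes were unevenly spread over barcodes. In barcodes reduced to 1000 UMIs, the variance of Sprr2f over its mean (the Fano factor, near 1 for counting noise alone) was 29.6 at day 7 and 26.7 at day 11, and the top 10% of the barcodes held 74.7% of its UMIs at day 7. At day 11 it had 207 such UMIs, too few for that share to be read. Sprr1b lay nearer to counting noise at day 7, with a Fano factor of 1.54. Sprr1a had a Fano factor of 14 at day 7 and 3.75 at day 11, although its level was higher at day 11. At least 3% of the UMIs came from the list, without Sprr2f, in 41 of 1010 barcodes at day 7 (4.06%, 2.93% to 5.47%) and in 18 of 10084 at day 11 (0.179%, 0.106% to 0.282%). Without the reduction the counts were 36 of 1010 and 8 of 10086. The median barcode held 0.5% at day 7 and 0.7% at day 11. Thus the tail of barcodes rich in these messages was larger at day 7, while the middle of the distribution was not. Most of the list's sum at day 11 came from Ly6d and Sprr1a, which were not lower. The middle at day 11 therefore describes mainly these genes and not the members called lower. The shares describe barcodes within 1 library each.

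**Figure D3:**
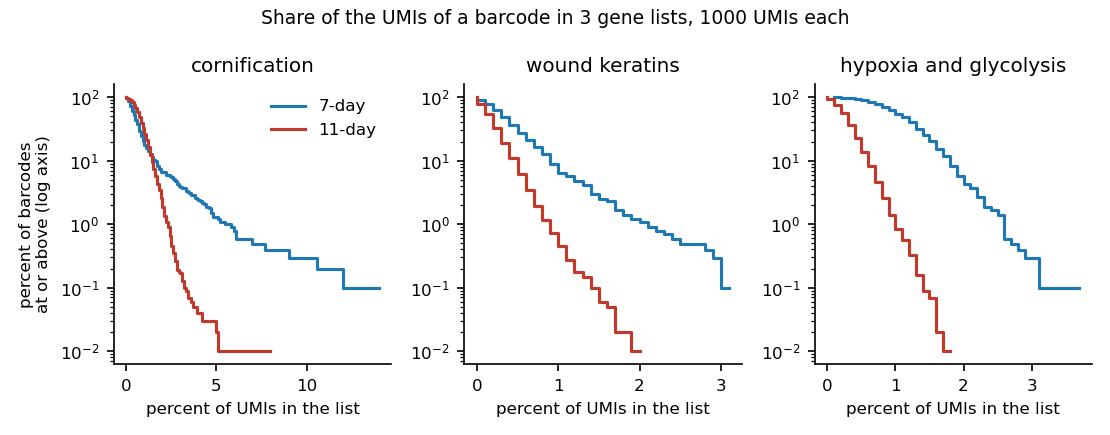
Percent of barcodes (y axis, log) whose share of UMIs in a gene list is at or above the value on the x axis, for 1010 barcodes of the 7-day and 10084 of the 11-day library, each reduced to 1000 UMIs. For cornification the curves cross, with 4.06% of 7-day and 0.179% of 11-day barcodes at 3% or more, while for hypoxia and glycolysis the 7-day curve lies to the right throughout.

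Among cell junction genes more were called lower than higher. Perp, a p53 target and part of desmosomes, stood at 5035, 4611 and 5377 CPM in the 7-day libraries and 783 CPM at day 11, 6.43-fold lower than the control (6.33 to 6.53). The desmosomal plaque gene Dsp was 1.97-fold lower at 742 and 377 CPM, just inside 2-fold. In all, 5 of 11 desmosome genes were called lower (unforced 4 of 10) and 1, Dsg2, higher. Of the tight junction genes Cldn4, a barrier-forming claudin, went from 881 to 192 CPM and Cldn1 from 35.5 to 5.62 CPM, and 3 of 10 were called lower (unforced 2 of 9) and 0 higher. Among transcription factors of stratified epithelium 5 of 13 were called lower (unforced 4 of 12) and 1 higher. The lower ones included Zfp750, which acts in epidermal differentiation (79.6 to 9.63 CPM), and Elf3, an epithelial ETS factor (210.3 to 29.1 CPM). The exception was Runx1 (155 to 687 CPM), which has 212 kb of introns. Genes for adhesion to the basement membrane showed 0 of 17 called lower and 2 higher, with a median log2 ratio of 0.65, close to that of all genes.

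Of the 23 glycolytic and hypoxia-responsive genes used, 16 were called lower (10 of 11 with under 10 kb of introns, and 15 of 22 unforced) and 0 higher, with a median log2 ratio of -1.38. Over all genes 5.53% were called lower, and 10.7% of those with under 10 kb of introns. HIF, the oxygen-sensitive transcription factor, is known to bind the letters ACGTG upstream of many of these genes. Pgk1, phosphoglycerate kinase, stood at 3413, 2912 and 3499.9 CPM in the 7-day libraries and at 380.5 CPM at day 11, 8.97-fold lower than the control (8.78 to 9.16). Aldoa (aldolase) went from 2679 to 504 CPM, Pkm (pyruvate kinase) from 1456 to 438 CPM and Ldha (lactate dehydrogenase) from 999 to 472 CPM, whose call was lost under some alternatives (-1.79 to -0.73 on the log2 scale). Targets of hypoxia outside the glycolytic chain were also lower. Ankrd37 went from 52.9 to 4.71 CPM, the carbonic anhydrase Car9 from 70 to 22.1 CPM and Ndrg1 from 324 to 109.6 CPM. Outside the list, Ndufa4l2, a mitochondrial protein induced by hypoxia, went from 267 to 10.8 CPM. The hexokinases Hk1 and Hk2 and the phosphofructokinases Pfkl and Pfkp were between 1.4 and 1.76-fold higher and were not called. Gapdh has many pseudogenes, and its 269 and 103 CPM are uncertain.

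The lower level was spread over the barcodes. At 1000 UMIs each, the list took at least 1% of the UMIs in 644 of 1010 barcodes at day 7 (63.8%, 60.7% to 66.7%) and in 143 of 10084 at day 11 (1.42%). The counts without reduction were 657 of 1010 and 40 of 10086. The 10th percentile at day 7, 0.5%, exceeded the median at day 11, 0.3%. Pgk1 had a Fano factor of 1.55 at day 7 and 1.23 at day 11, above counting noise alone in both. Cox4i1, for comparison, had 1.10 and 1.00.

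Some lower members, such as Gapdh, hold no ACGTG in the window searched and are not shown. Sequences upstream of 3 lower members that hold these letters are printed as examples. They are the 250 bases before the RefSeq start (GRCm38.p6, gene strand, 5′ to 3′), with matches to ACGTG on either strand in capitals; CACGTG reads the same on both strands and counts as overlapping matches. Ldha has a further window, at chr7:46846832-46847081, which holds no match and is not shown. Pgk1 lies on the plus strand at chrX:106186850-106187099, Ldha on the plus strand at chr7:46845554-46845803 and Ankrd37 on the minus strand at chr8:45999851-46000100.
Pgk1: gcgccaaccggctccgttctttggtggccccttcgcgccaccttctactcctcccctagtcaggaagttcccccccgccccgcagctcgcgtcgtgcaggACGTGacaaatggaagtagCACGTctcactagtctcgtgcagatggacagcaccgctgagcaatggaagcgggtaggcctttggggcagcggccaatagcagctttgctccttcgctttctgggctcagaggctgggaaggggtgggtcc
Ldha: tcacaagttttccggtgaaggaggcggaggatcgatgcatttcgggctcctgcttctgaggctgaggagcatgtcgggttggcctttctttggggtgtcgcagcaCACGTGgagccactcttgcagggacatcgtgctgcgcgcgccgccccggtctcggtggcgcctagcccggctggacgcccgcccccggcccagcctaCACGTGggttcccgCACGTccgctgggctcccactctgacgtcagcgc
Ankrd37: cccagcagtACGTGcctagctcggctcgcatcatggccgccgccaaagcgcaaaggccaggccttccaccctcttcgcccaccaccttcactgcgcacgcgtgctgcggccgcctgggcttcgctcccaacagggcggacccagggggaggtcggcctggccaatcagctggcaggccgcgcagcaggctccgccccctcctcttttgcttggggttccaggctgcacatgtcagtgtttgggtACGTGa
The letters occur 2 times in the window of Pgk1, and in Ankrd37 a match ends 2 bases before the start. Of the 22 list members matched to a RefSeq promoter, 15 hold ACGTG in at least 1 window. Among all 27025 genes with such windows 18.5% do, and 16.6% of all 32851 windows. The list was made up of glycolytic and hypoxia-responsive genes, for many of which these letters are known. Its share is therefore no result of these data. Hk2, which was not called lower, is among the 15. A match is a description of the letters and not of binding.

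Nuclear genes of the respiratory chain stayed close to level, which sets them apart in size from glycolysis without a test of that difference. Only 1 of 37 was called lower (Cox7c, 1006 to 462 CPM) and 2 were called higher, with a median log2 ratio of 0.14. After subtracting the all-gene median this is -0.58, so the direction depends on the scaling. Cox4i1 stood at 1309 and 1265 CPM. The call of Cox7c was lost with CPM scaled over genes with under 10 kb, or under 1 kb, of introns alone.

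Of 23 genes of the G2 and M phases of the cell cycle 8 were under the minimum, and 7 of the 15 used passed it only through their level at day 7, which fixed their direction. The 8 with at least 10 CPM at day 11 were all called lower, against an unforced share of 4.02% over all genes. Ube2c, which encodes an enzyme of the anaphase-promoting complex, stood at 130.2 CPM in the 7-day control, 91.4 and 103 CPM in the irradiated libraries and 16.7 CPM at day 11. Top2a, topoisomerase II, stood at 65, 27.5, 26.9 and 13.4 CPM in the same order, and Mki67, the antigen of the Ki-67 stain, at 35.3, 9.02, 9.73 and 9.85 CPM. With only barcodes of at least 2500 detected genes both calls were lost, the log2 ratio being -0.84 for Top2a and -0.33 for Mki67. For Mki67 the irradiated 7-day libraries were thus as low as day 11, whereas for Ube2c day 11 lay below them. S phase genes had 2 of 16 called lower (unforced 0 of 11) and 2 higher (unforced 1 of 15) and a median near 0. Rrm2, a ribonucleotide reductase subunit, went from 24.7 to 6.53 CPM and Pcna, the replication clamp, from 10.9 to 44.6 CPM. Among inhibitors of the cycle 3 of 6 were called lower (unforced 2 of 5) and 0 higher. Cdkn1a, the p53 target p21, stood at 582, 658 and 787 CPM in the 7-day libraries and 168 CPM at day 11, and Cdkn2a at 44.4 and 64.6 CPM. The call of Cdkn1a was lost with at least 2500 detected genes, its log2 ratio being -0.88. Of 19 p53 targets 3 were called lower, Perp, Cdkn1a and Pmaip1, and 5 higher (unforced 3 of 17), with a median of 0.23. The higher ones were Trp53inp1, Sesn1, Sesn2, Eda2r and Fas, which all have more than 10 kb of introns.

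Stress genes split. The small heat shock protein gene Hspb1 was the most abundant of its list at 11715, 11593 and 12864 CPM in the 7-day libraries and stood at 1929.8 CPM at day 11, 6.07-fold lower than the control (6.01 to 6.13). The mitochondrial chaperonin Hspe1 went from 508 to 136 CPM, and 5 of 12 heat shock genes were called lower and 0 higher. Hsp90ab1 stood at 4038 and 3449.6 CPM. Immediate early genes, which dissociation can induce, had 7 of 20 called lower (unforced 6 of 19) and 3 higher. The lower ones included Dusp1 (237 to 41.3 CPM) and Junb (479.9 to 119 CPM), and the higher ones were Fos (81.7 to 229 CPM), Fosb and Egr1 (34.2 to 130.3 CPM). In the unfolded protein response list 3 of 12 were called higher and 0 lower, but unforced only 1 of 9 was higher. Chac1, a glutathione-degrading enzyme induced by ATF4, went from 1.75 (12 UMIs) to 54 CPM and Trib3 from 5.38 to 33.1 CPM, while the chaperone gene Hspa5 stood at 433 and 513 CPM.

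**Figure D4:**
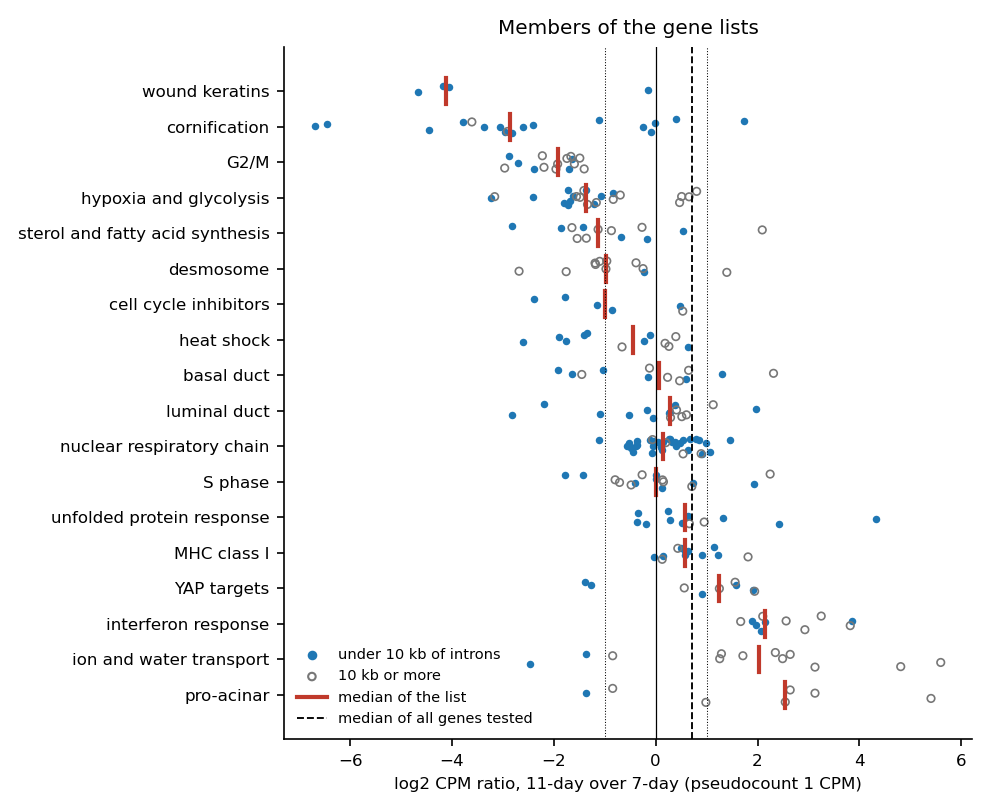
Log2 ratio of CPM, 11-day over 7-day mSGOs, for the members of 18 gene lists with a mean of at least 10 CPM, filled where a gene has under 10 kb of introns. Red bars mark list medians, the dashed line the median of all genes at 0.71 and dotted lines 2-fold, and the lists run from wound keratins at -4.11 to pro-acinar genes at 2.55. All 4 wound keratins but only 1 of 7 pro-acinar genes, which was called lower, have under 10 kb of introns.

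Sterol synthesis genes were called lower in 7 of 13 members (unforced 6 of 12) and higher in 1, with a median log2 ratio of -1.13. Insig1, which is a feedback target of the sterol-sensing factor SREBP, went from 36.6 to 4.32 CPM and Sqle (squalene epoxidase) from 71 to 18.8 CPM. Cyp51, a lanosterol demethylase, stood at 210.1 CPM in the 7-day control, 136 and 143 CPM in the irradiated libraries and 66.5 CPM at day 11. The lower calls of Cyp51, Idi1 and Hmgcs1 were lost with at least 2500 detected genes. Those of Idi1 and Hmgcs1 were also lost with no minimum on Malat1. Acaca, the enzyme that commits acetyl-CoA to fatty acids, was the one called higher (14 to 62.8 CPM) and has 254 kb of introns.

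Luminal duct keratins differed by less than 2-fold, with Krt7 at 858 and 1050.2 CPM, Krt8 at 178 and 230.3 CPM and Krt18 at 961 and 931 CPM. Wfdc2, a secreted antiprotease of ducts, stood at 1491, 1225 and 1123 CPM in the 7-day libraries and 5834 CPM at day 11, 3.91-fold higher than the control (3.84 to 3.99). Of 15 luminal genes 2 were called higher and 3 lower. The levels of the list sum to 7040.1 CPM at day 7 and 10955 CPM at day 11, a rise carried by Wfdc2, since without it they sum to 5549 and 5121 CPM. Those of the basal list sum to 11952 and 6682 CPM. In summed UMIs such as these, fewer cells of a type and less RNA per cell cannot be told apart.

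Ion transport genes were called higher in 9 of 12 members (unforced 5 of 8) and lower in 2. Of the 12, 10 have at least 10 kb of introns. The other 2 were both called lower, so no member with short introns was called higher. Atp1b1, the beta subunit of the sodium pump, stood at 21.8, 15.8 and 16.5 CPM in the 7-day libraries and 640.2 CPM at day 11, 29.3-fold higher than the control (25 to 34.7), with 16.4 kb of introns. Fxyd2, a regulatory subunit of the same pump, is not in the list and has 6.39 kb of introns, and it went from 1.02 CPM (7 UMIs) to 199.9 CPM. The chloride channel Ano1 and the cotransporter Slc12a2 stood at 10.2 and 6.11 CPM at day 7 and 96.8 and 43.4 CPM at day 11. The chloride channel regulator Clca3a2 had 0 UMIs in all 7-day libraries and 47.5 CPM at day 11, at least 109-fold higher against a floor of 3 counts in the 7-day control. The members called lower were the water channels Aqp3 (250.1 to 44.3 CPM) and Aqp5, which marks acinar cells. The call of Aqp5 was lost with a pseudocount of 10 CPM and with barcodes thinned to 1000 UMIs. Aqp5 stood at 34 CPM in the 7-day control, 8.32 and 7.06 CPM in the irradiated libraries and 12.6 CPM at day 11, so the 7-day control alone stood out.

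Among pro-acinar markers 4 of 7 were called higher (unforced 2 of 5) and 1, Aqp5, lower, a call lost under some alternatives. Chrm3, the muscarinic receptor that drives saliva secretion, stood at 1.45, 1.64 and 1.95 CPM in the 7-day libraries (10 UMIs in the control) and 103 CPM at day 11, and Alcam, an adhesion molecule, at 48.4, 58.7, 50.1 and 288 CPM. All 4 higher genes have long introns, 479 kb in Chrm3 and 198 kb in Alcam, and Clcn3, at 55.8 and 112 CPM, was not called. Of the secretory products of acini only the amylase gene Amy1 reached the minimum, with 0 UMIs in the 7-day control and 35.6 CPM at day 11, at least 81.6-fold higher. Amylase genes are close copies, so the assignment to Amy1 is uncertain. The other 10 members were under 10 CPM, and the list summed to 0.145 CPM at day 7, 37.4 CPM at day 11 and 40854 CPM in 162 barcodes of fresh gland tissue.

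In the list of granular and striated duct genes 18 of 20 members were under the minimum and the other 2 passed it only through their level at day 11, which fixed their direction. Esrrg, an orphan nuclear receptor of mitochondria-rich cells, had 1 UMI in the 7-day control, 0.234 and 0.608 CPM in the irradiated libraries and 430.0 CPM at day 11. Ptprd, a receptor phosphatase, had 1 UMI in the 7-day control and 302 CPM at day 11. Their introns span 599.9 and 2246 kb. In fresh tissue Esrrg stood at 13.7 CPM and Ptprd at 3.74 CPM. Of short genes with secreted products, Wfdc18 (1.11 kb of introns) went from 0.582 CPM (4 UMIs) to 304 CPM and stood at 1324 CPM in fresh tissue. Its UMIs at day 11 sat in few barcodes, with a Fano factor of 10.5 after reduction to 1000 UMIs. Markers of Ascl3 duct cells and ionocytes were all under the minimum and summed to 6.69 and 10.6 CPM.

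**Figure D5:**
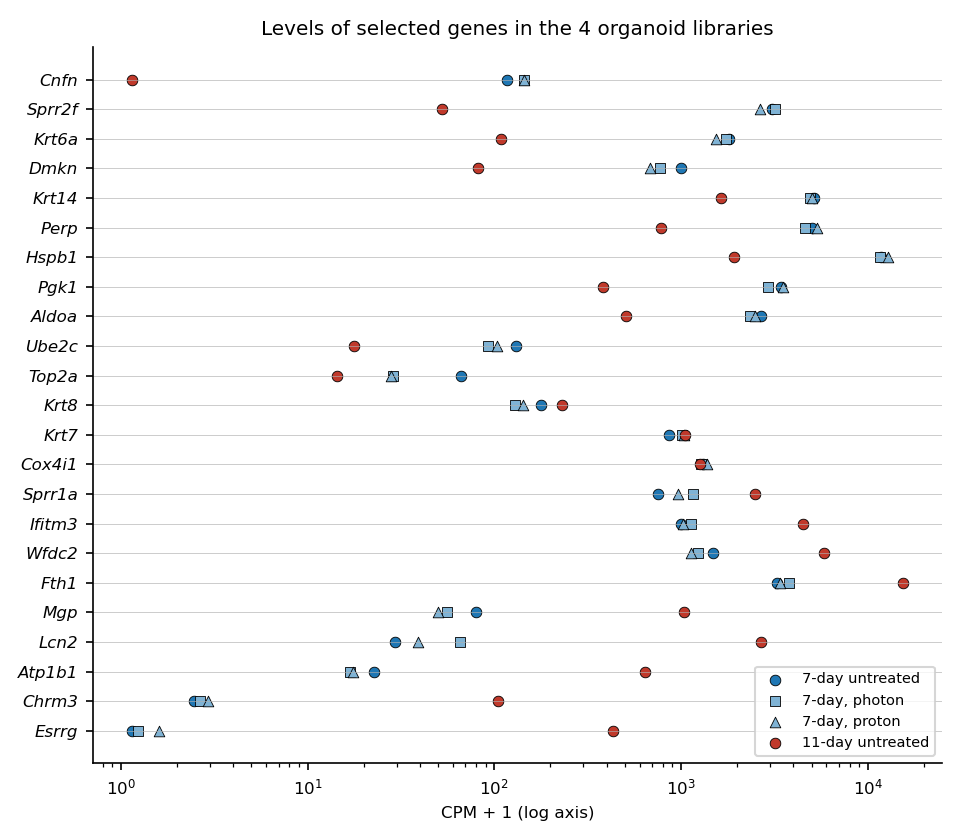
CPM + 1 (log axis) of 23 genes in the 4 organoid libraries, 3 collected at day 7 (blue) and 1 at day 11 (red). For Krt6a, Hspb1 and Pgk1 the 7-day libraries lie together above day 11, for Fth1, Lcn2 and Atp1b1 below it, and for Cox4i1 all 4 lie between 1265 and 1371 CPM.

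Of 21 interferon response genes 10 were under the minimum, and 7 of the 11 used passed it only through their level at day 11, so their being higher was fixed by the filter. The 4 with at least 10 CPM at day 7, Ifitm3, Ifi27, Bst2 and Isg15, were all called higher, against an unforced share of 28.1% over all genes, though Ifi27 was not past 2-fold relative to the all-gene median. Ifitm3, a membrane protein that restricts virus entry, stood at 1003, 1126 and 1021 CPM in the 7-day libraries and 4474 CPM at day 11, 4.46-fold higher than the control (4.35 to 4.57). Bst2 (tetherin) stood at 26.5, 49.3, 51.2 and 101 CPM in the same order. Isg15, a ubiquitin-like modifier, stood at 12.5 CPM in the 7-day control, 48.9 and 59.1 CPM in the irradiated libraries and 52.2 CPM at day 11, inside the range of the irradiated libraries. The 7-day control was the lowest library for both Bst2 and Isg15. Outside the list, Ifi27l2a went from 14 to 216 CPM.

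Ifitm3 provided most of the summed level, and its Fano factor was 1.34 at day 7 and 1.99 at day 11. At 1000 UMIs each, the list held at least 1% of the UMIs in 0 of 1010 barcodes at day 7, with an exact upper bound of 0.365%, and in 872 of 10084 at day 11 (8.65%, 8.11% to 9.21%). Without the reduction it did in 0 of 1010 and 402 of 10086. The macrophage and lymphocyte markers, as given above, were near 0 at day 11, and the source of the higher interferon genes was not tested. MHC class I genes had 3 of 13 called higher (unforced 2 of 9), 0 lower and a median of 0.57. H2-K1, a classical class I gene, went from 141 to 333 CPM and B2m, its light chain, stood at 187 and 206 CPM. The H2 genes share sequence, so their split is uncertain.

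The upstream windows of Isg15 (minus strand, chr4:156200819-156201068) and Bst2 (minus strand, chr8:71537473-71537722) are shown because they alone among the 8 members matched hold the letters GAAA, any 2 bases and GAAA again, the core of the interferon-stimulated response element, on either strand. Matches are in capitals and overlap one another.
Isg15: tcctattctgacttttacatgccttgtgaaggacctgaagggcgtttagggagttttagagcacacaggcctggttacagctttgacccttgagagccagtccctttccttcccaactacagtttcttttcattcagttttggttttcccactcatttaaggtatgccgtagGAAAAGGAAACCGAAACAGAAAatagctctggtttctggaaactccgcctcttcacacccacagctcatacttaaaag
Bst2: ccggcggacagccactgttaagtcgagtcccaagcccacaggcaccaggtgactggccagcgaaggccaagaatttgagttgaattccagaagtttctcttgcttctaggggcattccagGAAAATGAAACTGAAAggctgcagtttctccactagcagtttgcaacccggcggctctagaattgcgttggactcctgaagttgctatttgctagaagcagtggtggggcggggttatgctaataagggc
The last match ends 57 bases before the RefSeq start in Isg15 and 115 bases before it in Bst2. These were 2 of the 8 list members matched to a window (GRCm38.p6), and 3.46% of all 27025 genes hold the letters, as do 2.98% of the 32851 windows. For the other 6 the result says only that these letters are not in the 250 bases.

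Secreted defence proteins were among the genes with the highest ratios. Lcn2 (chromosome 2, 32384637 to 32387739, GRCm38.p6), the iron-scavenging lipocalin, stood at 28.4 CPM in the 7-day control, 64.7 and 37.8 CPM in the irradiated libraries and 2676 CPM at day 11, 94.4-fold higher than the control (82 to 109), with 0.997 kb of introns. Ltf, the iron-binding lactotransferrin of glandular secretions, had 0 UMIs in the 7-day control and 53.4 CPM at day 11, at least 122-fold higher. The mucosal chemokine Cxcl17 went from 8.14 to 256 CPM. The beta-defensin gene Defb14 went the other way, from 64.6 CPM in the 7-day control to 1.11 CPM, with 114 and 46.8 CPM in the irradiated libraries. In the whole antimicrobial list 4 of 9 members were called higher and 1 lower, but unforced 2 of 7 were higher and 0 of 7 lower, close to all genes in the first case. Its median of -0.37 changed sign between the alternatives and has the opposite sign to the change of its summed level, from 2276 to 9285 CPM. That change was carried by Wfdc2 and Lcn2, without which the list summed to 756 and 774 CPM. At 1000 UMIs each, the whole list, these 2 genes included, took at least 1% of the UMIs in 5 of 1010 barcodes at day 7 and 3184 of 10084 at day 11 (31.6%, 30.7% to 32.5%). The Fano factor of Lcn2 was 6.43 at day 11.

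Plasma proteins of the acute phase that glands can also make were picked by their ratio. The copper carrier Cp stood at 16.3, 34.2 and 25.5 CPM in the 7-day libraries and 1524 CPM at day 11. Lbp, which binds bacterial lipopolysaccharide, went from 2.18 (15 UMIs) to 328 CPM, Orm1 from 2.33 (16 UMIs) to 178 CPM, and Orm3 from 0 UMIs to 123 CPM, at least 281-fold higher. Orm1 and Orm3 are close copies. Of 10 epithelial cytokines and chemokines 4 were called higher and 0 lower. All 4 passed the minimum only through day 11, and unforced 0 of 6 were higher. The neutrophil chemokine Cxcl5 went from 5.82 to 84.9 CPM and Ccl20 from 0 UMIs to 22.6 CPM, with a Fano factor of 8.38 for Ccl20 at day 11, while Cxcl1 stood at 148 and 175 CPM.

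Iron storage and glutathione genes included the most abundant message that was called higher. Fth1, the ferritin heavy chain, stood at 3281, 3774 and 3405 CPM in the 7-day libraries and 15515 CPM at day 11, 4.73-fold higher than the control (4.67 to 4.79), while the light chain gene Ftl1 stood at 1101 and 1035 CPM. Both have pseudogenes. Slc7a11, the cystine importer, went from 11.9 to 667 CPM with 536 kb of introns, and Gclc, which makes the glutathione precursor, from 175 to 721 CPM. Hmox1, the haem oxygenase, has 5.22 kb of introns and went from 22.4 to 69.1 CPM. Of 24 members 8 were called higher and 0 lower. All 24 had at least 10 CPM at day 7, so this compares with the unforced 28.1% of all genes, and the median of 0.17 lay below that of all genes.

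Markers by which the study names stem/progenitor cells mostly stayed within 2-fold. Sox9 stood at 113 CPM in the 7-day control, 197 and 195 CPM in the irradiated libraries and 119 CPM at day 11. Cd164 stood at 95.4 and 104 CPM and Cd24a at 286 and 135 CPM, which is 2.11-fold lower (2.00 to 2.23). That call was lost under some alternatives, the log2 ratio lying between -1.79 and -0.61. Of the other marker set Itgb1 stood at 376 and 535 CPM, Cd44 at 103 and 175 CPM and Nt5e at 85.9 and 138 CPM, all with over 30 kb of introns. Alcam, the one of its 5 members called higher, is given above among the pro-acinar markers. Ly6a was the most abundant of the further progenitor genes at 1514 and 2244 CPM, and Procr, the protein C receptor, went from 65.6 to 5.45 CPM.

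Most members called higher in the signalling lists have at least 10 kb of introns. In the Notch list 7 of 16 were called higher and 1 lower, near the shares over all genes (39.1% and 5.53%), and unforced 5 of 14 and 0 of 15. The Notch target Nrarp stood at 57, 63.8 and 75.4 CPM in the 7-day libraries and 5.4 CPM at day 11. The target Hes1 was level at 54.7 and 57.5 CPM, below the 109.5 and 109 CPM of the irradiated libraries. The receptor gene Notch1 and the ligand gene Jag1 stood at 185 and 67.2 CPM at day 7 and 126 and 76.3 CPM at day 11. None of the 3 members with under 10 kb of introns was called higher. The Wnt list had 9 of 17 called higher (unforced 5 of 11) and 0 lower, with 0 of 4 called among short-intron genes, and the feedback target Axin2 stood at 14.8 and 21.3 CPM.

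Of EGF receptor genes and their feedback 3 of 11 were called higher (unforced 3 of 10) and 3 lower (unforced 2 of 10). The ligand Areg went from 161 to 72.4 CPM, the receptor Egfr from 46.8 to 275 CPM (154 kb of introns) and the feedback inhibitor Phlda1 from 387 to 63 CPM. The call of Areg was lost under some alternatives, its log2 ratio lying between -1.86 and -0.55. In the TGF-beta and BMP list 5 of 14 were called higher and 4 lower (unforced 3 of 13). The BMP target Id3 went from 752 to 194 CPM, whereas Id1 and Id2 stood at 141 and 102 CPM at day 7 and 164 and 116 CPM at day 11. Of 9 YAP targets 5 were called higher (unforced 4 of 8) and 2 lower. The secreted matrix protein genes Ctgf and Cyr61, with under 1 kb of introns, stood at 50.2 and 75.6 CPM in the 7-day control and 192 and 228 CPM at day 11, above the irradiated libraries as well (87.3 and 91.7 CPM for Ctgf). The call of Cyr61 was lost relative to the median of all genes and with at least 2500 detected genes. Among 5 glucocorticoid targets 2 were called lower, Tsc22d3 (312 to 82.2 CPM) and Per1, and 0 higher.

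Myoepithelial genes had 1 of 6 called lower, Lgals7 (410.1 to 100.5 CPM), and 0 higher, while Csrp1 and Sparc stood at 114 and 83.6 CPM at day 7 and 153 and 111 CPM at day 11. Of 5 epithelial-mesenchymal genes 2 were called higher (unforced 1 of 4) and 1, Vim, lower (33.4 to 8.95 CPM, unforced 0 of 4). The higher ones were Fn1 and Tnc, which encode matrix proteins. None of 3 nuclear retained RNAs other than Malat1 was called in either direction, with Neat1 at 1042 and 1100.5 CPM.

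Further genes were picked by their ratio alone. Mgp, the matrix Gla protein that inhibits calcification, stood at 78.7, 55.1 and 48.7 CPM in the 7-day libraries and 1039 CPM at day 11 with 2.2 kb of introns. Cirbp, a cold-inducible RNA-binding protein, went from 25.9 to 285 CPM, the autophagy receptor Sqstm1 from 58.8 to 323 CPM and the helix-loop-helix gene Id4 from 33.4 to 174 CPM. With long introns, the mitochondrial coactivator Ppargc1a went from 0.582 (4 UMIs) to 105 CPM, the mitochondrial carrier Slc25a21 from 1.89 (13 UMIs) to 231 CPM and the Tie2 ligand Angpt1 from 1 UMI to 118 CPM. Naaladl2, with 1336 kb of introns, went from 0 UMIs to 111 CPM.

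Of the further genes with the lowest ratios, Igfbp2, which binds insulin-like growth factors, stood at 144, 111 and 134 CPM in the 7-day libraries and 4.71 CPM at day 11. The cornified envelope genes Crct1 and Cysrt1 stood at 181 and 128 CPM at day 7 and 9.74 and 3.83 CPM at day 11. The log2 ratio of Crct1, -4.08, lay between -5.16 and -1.30 over the alternatives. Lypd3, a surface protein of suprabasal keratinocytes, went from 257 to 13.3 CPM, the fatty acid binding protein gene Fabp4 from 106 to 10.2 CPM, the kinase gene Pim3 from 222 to 23.5 CPM and the histone gene Hist1h2bc from 243 to 17.6 CPM.

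Some of the highest ratios belong to genes whose model differs between the gene lists. Nme2, which almost all cells express, stood at 3.05, 6.09 and 30.8 CPM in the 7-day libraries and 686 CPM at day 11. On the same strand it overlaps a gene model that is listed for the 7-day libraries only, and so do Rnasek (0.727 to 287 CPM), Grcc10 (12.8 to 157 CPM) and Pabpn1 (29.7 to 196 CPM). Reads that fit both models are not counted for either, so these values are uncertain. Of 137 such genes tested 82 were called higher and 4 lower, and with all such genes left out before CPM was recomputed, 2979 of 7594 genes were called higher and 417 lower. Atp6v0c, a proton pump subunit, shows the same pattern (2.62 to 436 CPM) with no overlap found. The search covered the 304 of 647 models listed only for day 7 that have a position in the annotation used.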

How the data were processed

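Single-cell RNA libraries were made with a droplet 3′ kit from 45000 sorted viable cells each. The authors deposited matrices of UMI counts per gene and barcode, with gene and barcode lists (per the file headers, other text). The submitters' processing notes name Cell Ranger 5 and mm10, while the file headers give software versions 3.0.1 for the 7-day and 7.0.0 for the 11-day library. The gene lists hold 30406 genes in common. No sample column was left unused (0).

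Barcodes were kept by the 3 limits given in the report, which left 6881847 UMIs at day 7 and 35409807 at day 11. UMI counts were summed per library and scaled to CPM over the shared genes. Log2 ratios used a pseudocount of 1 CPM and a minimum mean of 10 CPM, leaving out Malat1 and mitochondrially encoded genes. Intervals were exact (95%, Poisson or conditional binomial), with a floor of 3 counts for genes at 0, and cover counting error only. For spread over barcodes each was thinned to 1000 UMIs. Doublets were kept, and removal of the highest Scrublet scores, at a preset rate of 0.8% per 1000 barcodes, was an alternative. Intron lengths and overlaps of gene models came from the GENCODE annotation of GRCm39, used for lengths and neighbours only, since the files use another build. Printed positions and promoters came from RefSeq tables of GRCm38.p6 (mm10). Python 3.11.15, numpy 2.4.6, pandas 2.3.3, scipy 1.17.1 and scanpy 1.11.5 were used, and the scripts were tested on simulated data.

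Named genes were the 4 most abundant members of each list, markers named by the study, and the 15 highest and 15 lowest ratios at a mean of at least 50 CPM, over all genes and over those with under 10 kb of introns. Other genes named were chosen after their values were seen. The comparison, its lists and its rules were chosen with earlier results of these data known. With 1 library per group no p-value was computed. In all 16 alternatives were run, 3 of them added after seeing the data. Some list members enter the counts but are not reported here by name.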

Additional observations from a re-analysis of the deposited data

Results flagged for a closer look

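Among genes in the 11-day gene list alone, which enter no ratio, 2 stood out by their level at day 11. Gas5, a host gene of small nucleolar RNAs, stood at 531 CPM (18798 UMIs) and 2410006H16Rik at 456 CPM (16161 UMIs), both on the scale of all genes of that library. The 1879 genes of this kind held 0.552% of the UMIs of the 11-day library, and the 647 genes listed for the 7-day library alone held 0.0826% of its UMIs.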

How the results depend on the processing

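Of the 16 alternatives, 3 were chosen after seeing the data: leaving out genes that overlap a model listed for day 7 alone, using genes with under 1 kb of introns alone, and leaving out ribosomal protein genes. Alternatives were run for 38 lists and 190 named genes. The direction of the 11 of these lists and 104 of these genes past 2-fold was kept in every alternative that gave a value, which for genes with long introns leaves out those on short introns. Of all those run, 14 lists and 128 genes kept their sign throughout. The 2-fold call was lost in at least 1 alternative by 26 of the 104 genes, 12 of them higher and 14 lower at day 11, most often with at least 2500 detected genes (12 genes) or relative to the median (12 genes). Beside those given in the report, these include H2-K1, Jup and Pkp1. Sizes moved more than directions. The median of the wound keratins lay between -4.83 and -2.14, of cornification between -3.57 and -1.25, of hypoxia and glycolysis between -2.09 and -1.06, and of ion transport between 1.32 and 2.14. The median log2 ratio of all genes, 0.71, was 0.55 with a pseudocount of 10 CPM, 0 by construction relative to the median, 0.53 with at least 2500 detected genes per barcode, 0.91 with no minimum on Malat1, 0.59 with a Malat1 share from 1% to 3%, and 0.46 without ribosomal protein genes. The 3017 higher and 426 lower genes became 1505 and 1122 relative to the median, 5462 and 676 with no minimum beyond 10 UMIs (14904 genes), 963 and 180 with CPM over genes with under 10 kb of introns, and 293 and 56 with CPM over those with under 1 kb; fewer genes are tested in the last pair. Without ribosomal protein genes 2564 genes were higher and 657 lower, of 8314 tested. For the other changes the cause was not tested. Counts under the remaining alternatives, among them doublet removal (58 barcodes at day 7 and 1151 at day 11), stayed within 1.5 times. No paired analysis was possible because each group holds 1 library. Depth limits genes with few UMIs at day 7, where 3 counts correspond to 0.436 CPM.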
